A study of Mus musculus with 2 samples.

Results

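The expression of 10 genes of tissue-resident and alternatively activated macrophages was examined in differentiating brown adipocytes: Mrc1, Cd163, Stab1, Lyve1, Folr2, F13a1, Arg1, Retnla, Mgl2 and Msr1. They were found by symbol among 23361 genes with values, and all 10 were present. The genes were chosen by their known roles and because Mrc1 had been noted in these libraries as the macrophage gene that differed most, so the differences below are a description and not a test. The ratios of F13a1 and Cd163 given below were nevertheless higher than that of Mrc1. RNA-Seq compared brown preadipocytes (D0) with differentiated brown adipocytes (D7), with 1 library per stage. The cells were isolated from interscapular brown fat of newborn C57BL/6 mice (C57BL/6J in the study's methods). By the sample labels, cells of both stages grew with T3 (1 nM) and insulin (0.1 μM), and the D7 cells had also been induced at first with indomethacin (0.125 mM), IBMX (0.5 mM) and dexamethasone (2 μg/ml). The study's methods give other insulin and dexamethasone concentrations and describe cells immortalized with large T, whereas the labels describe primary preadipocytes. No sorting of cells was described, so a bulk value cannot tell a larger number of cells of one type from more RNA per cell.

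Adipose tissue holds resident macrophages, which take up cell debris, lipoproteins and hemoglobin complexes through scavenger receptors and clear glycoproteins through lectin receptors. Macrophages exposed to the cytokines IL-4 and IL-13 are called alternatively activated, and in mice they turn on Arg1, Retnla, Chil3, Mgl2 and Mrc1. Lyve1, Folr2, Cd163, Stab1 and F13a1 mark resident macrophages of many tissues, in part also endothelium.

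Mrc1, Folr2, Stab1 and F13a1 carried most of the signal at D7. Of the genes above that alternatively activated macrophages turn on, Mrc1 made up 32.7% of the summed FPKM of the 10 genes, Retnla 5.52% and Arg1 0.394%, and Mgl2 was listed at 0. FPKM, the number of fragments scaled by transcript length and library size, was above 0 in both libraries for 8 of the 10 genes, and all 8 were at least 2.0-fold higher at D7. Of these 8, 6 had more than 3 fragments in both libraries, while Cd163 and Arg1 had 1 at D0. For Arg1 the difference did not exceed counting error (below). Of all 14986 genes above 0 in both libraries, 18.5% were at least 2.0-fold higher at D7. The median log2 ratio was 3.0 over the 8 genes and 0.02 over the 14986. Retnla was listed at 0 at D0 only and Mgl2 at 0 in both libraries. The summed FPKM of the 10 genes was 4.96 at D0 and 64.4 at D7, and FPKM reached 1 in 2 of them at D0 and in 7 at D7. Folr2 and Stab1 made up 38.5% and 25.1% of the sum at D0. At D7 Mrc1 was followed by Folr2 with 18.6%, Stab1 with 17.4% and F13a1 with 16.2%.

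Single-exon genes were used to work out how many fragments lie behind each value, and exact 95% intervals are given on these fragments. They reflect the error of counting alone, and since no stage had a second library they describe a pair of libraries and not the stages. For a gene listed at 0 no fragment was counted, which allows an expected level of up to 3 fragments. Folds from 0 are lower bounds against that limit in 1 library and leave out the counting error of the other library. The denominators behind FPKM came to 21471371 fragments in the D0 library and 18265890 in the D7 library, so the same fragment counted for 1.18 times the FPKM at D7.

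**Figure D1:**
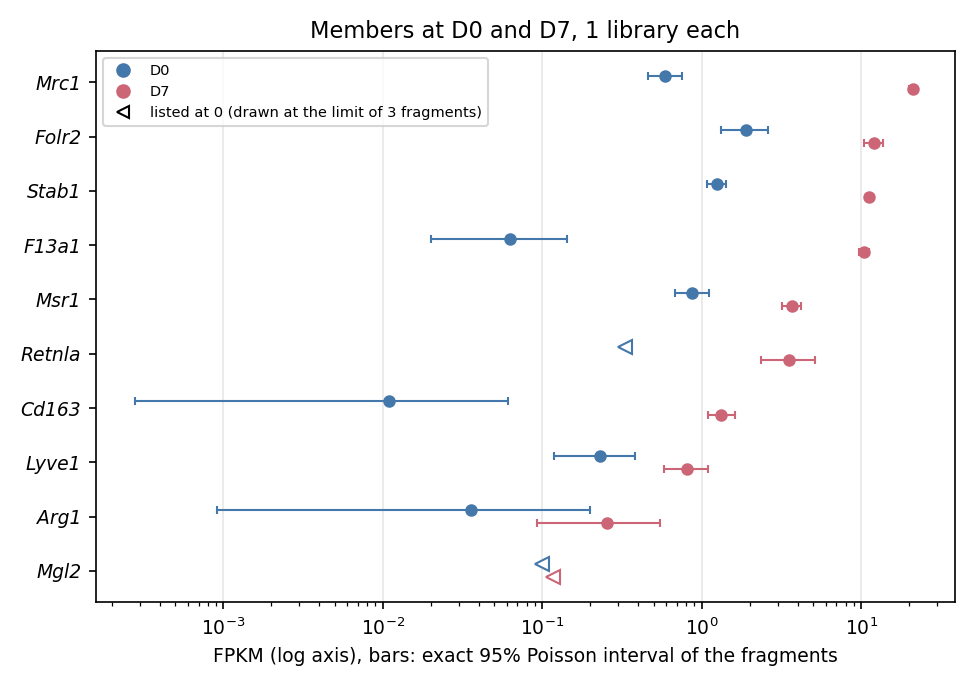
FPKM of the 10 genes on a log axis at D0 (blue) and D7 (red), 1 library each. Bars are exact 95% Poisson intervals of the fragments, and open triangles mark genes listed at 0, drawn at the limit of 3 fragments. The intervals of D0 and D7 do not overlap except for Arg1 and for Mgl2, which was listed at 0 in both.

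Mrc1 (ENSMUSG00000026712.3, mm10 chromosome 2, 14229392 to 14332057, plus strand) encodes the mannose receptor CD206, an endocytic receptor for mannosylated glycoproteins. Mrc1 measured 0.589 FPKM in the D0 library (about 66 fragments) against 21.1 FPKM in the D7 library (about 1997 fragments), and the ratio was 35.8 (95% interval 27.8 to 46.2). By level it was number 4 of the 10 genes at D0 and number 1 at D7. Its ratio was number 155 among the 14986 genes above 0 in both libraries. Among 11701 genes with at least 20 fragments in both libraries, 47 had a higher ratio. Mrc1 is the host gene of Mir511, whose row shared the deposited locus and was listed at 0 in both libraries.

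The bases before the start sites of Mrc1, Stab1, F13a1 and Retnla are printed with the genes, the first 3 because their levels at D7 were among the highest of the 10 genes and Retnla because it was listed at 0 at D0. They are RefSeq promoter sequences (GRCm38.p6), 5′ to 3′ on the strand of the gene, and end before the first annotated transcript start. Capitals mark GAGGAA or its reverse complement TTCCTC, the core of the motif of PU.1, a factor that macrophages need to develop. The sequence of Mrc1 is chr2:14229164-14229391 on the plus strand.
Mrc1: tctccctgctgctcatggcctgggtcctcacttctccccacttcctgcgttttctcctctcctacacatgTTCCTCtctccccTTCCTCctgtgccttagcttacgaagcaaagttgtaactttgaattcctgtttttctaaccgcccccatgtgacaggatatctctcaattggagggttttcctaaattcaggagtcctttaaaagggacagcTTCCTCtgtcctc

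Stab1 (ENSMUSG00000042286.13, chromosome 14, 31139013 to 31168641, minus strand) encodes stabilin 1, a receptor for modified lipoproteins and matrix fragments. Stab1 measured 1.25 FPKM in the D0 library (about 209 fragments) against 11.2 FPKM in the D7 library (about 1603 fragments), with a ratio of 9.01 (7.80 to 10.5). Nt5dc2 on the opposite strand shared its deposited locus and went the other way, from 42.3 FPKM to 12.6. By the study's methods, second-strand cDNA was degraded with UNG when the libraries were made. Whether strand was used in counting was not given in the sources used here. Before the start of Stab1, in chr14:31168642-31168891 on the minus strand, the PU.1 core stood at bases 221 to 226.
Stab1: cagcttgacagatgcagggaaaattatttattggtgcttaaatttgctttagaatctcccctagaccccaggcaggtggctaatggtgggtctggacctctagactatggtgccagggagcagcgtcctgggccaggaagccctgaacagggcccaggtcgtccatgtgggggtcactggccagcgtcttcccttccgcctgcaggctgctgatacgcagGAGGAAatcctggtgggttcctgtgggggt

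Cd163 (ENSMUSG00000008845.9, chromosome 6, 124304656 to 124330527, plus strand) encodes the receptor for hemoglobin bound to haptoglobin. Only 1 fragment was counted in the D0 library (0.011 FPKM), against about 103 in the D7 library (1.33 FPKM). The ratio of 121 has an interval from 21.3 to 4830, so the difference exceeded counting error while its size was not fixed by these data.

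Msr1 (ENSMUSG00000025044.16, chromosome 8, 39581685 to 39642673, minus strand) encodes class A scavenger receptor 1, which binds modified low-density lipoprotein. Msr1 measured 0.871 FPKM in the D0 library (about 65 fragments) against 3.67 FPKM in the D7 library (about 231 fragments), with a ratio of 4.21 (3.16 to 5.59). The locus deposited for Msr1 spanned 760340 bp, whereas the annotated gene spans 60989 bp, and it was shared with the row of Mir669e, so the value of Msr1 is uncertain.

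Folr2 (ENSMUSG00000032725.10, chromosome 7, 101839988 to 101857194, minus strand) encodes folate receptor beta, a surface marker of resident macrophages. It had the highest level of the 10 genes at D0, with 1.91 FPKM (about 36 fragments), and reached 12 FPKM at D7 (about 194 fragments), with a ratio of 6.28 (4.44 to 9.34). Lyve1 (ENSMUSG00000030787.4, chromosome 7, 110850607 to 110863239, minus strand) encodes a hyaluronan receptor of lymphatic endothelium and of some resident macrophages. Lyve1 measured 0.230 FPKM in the D0 library (about 13 fragments) against 0.813 FPKM in the D7 library (about 40 fragments), and its ratio of 3.53 (1.90 to 7.38) was the lowest of the 8.

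F13a1 (ENSMUSG00000039109.16, chromosome 13, 36867178 to 37050244, minus strand) encodes the A subunit of coagulation factor XIII, a transglutaminase that crosslinks fibrin. F13a1 measured 0.0633 FPKM in the D0 library, where about 5 fragments were counted, against 10.4 FPKM in the D7 library with about 719. The ratio of 165 (72.2 to 523) was the highest of the 8 genes, and the interval lay above that of Mrc1. At D7 the level of F13a1 was close to those of Stab1 and Folr2, and the intervals of their FPKM overlapped (F13a1 9.69 to 11.2, Stab1 10.7 to 11.8, Folr2 10.4 to 13.8). Annotated antisense transcripts overlap F13a1. The sequence chr13:37050245-37050494 on the minus strand held the PU.1 core at bases 185 to 190.
F13a1: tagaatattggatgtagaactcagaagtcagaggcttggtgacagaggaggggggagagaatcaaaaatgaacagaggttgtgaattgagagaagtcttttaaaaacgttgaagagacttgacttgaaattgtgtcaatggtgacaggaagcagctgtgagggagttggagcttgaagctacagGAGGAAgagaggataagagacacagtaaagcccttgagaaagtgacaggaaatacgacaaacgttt

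Retnla (ENSMUSG00000061100.4, chromosome 16, 48842551 to 48844461, plus strand) encodes resistin-like alpha, a secreted product of alternatively activated macrophages that adipose tissue is also known to make. No fragment was counted in the D0 library, and 3.55 FPKM were measured in the D7 library on about 27 fragments. With the limit of 3 fragments at D0, an FPKM of 0.333, it was at least 10.7-fold higher at D7. Of 1012 genes listed at 0 at D0 only, 78 reached an FPKM of 1 at D7, Retnla among them. In chr16:48842359-48842550 on the plus strand, capitals mark the PU.1 core at bases 55 to 60 and, at bases 106 to 115, TTCNNNNGAA, the motif of STAT6, the factor activated by IL-4.
Retnla: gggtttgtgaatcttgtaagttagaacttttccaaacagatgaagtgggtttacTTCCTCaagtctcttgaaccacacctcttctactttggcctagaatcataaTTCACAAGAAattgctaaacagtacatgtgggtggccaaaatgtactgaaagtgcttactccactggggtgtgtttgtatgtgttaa

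Arg1 (ENSMUSG00000019987.9, chromosome 10, 24915221 to 24927484, minus strand) encodes arginase 1, which splits arginine into ornithine and urea. It had 1 fragment at D0 (FPKM 0.0359) and about 6 at D7 (FPKM 0.254). Its ratio of 7.07 has an interval from 0.858 to 325 that includes 1, so no difference of Arg1 was detectable at this depth. Mgl2 (ENSMUSG00000040950.13, chromosome 11, 70130329 to 70137550, plus strand) encodes a galactose-binding C-type lectin and was listed at 0 in both libraries, which allows an FPKM of up to 0.0993 at D0 and 0.117 at D7. Of the 1497 overlapping stretches of 90 bases in the Mgl2 transcript, 111 (7.41%) were shared with Clec10a, and reads from them could be assigned to either gene. No such stretch was shared with another gene in the transcripts of the other 9 genes. Only exact matches were searched, whereas the study's alignment allowed mismatches, so reads of similar genes assigned to these 9 are not excluded.

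The order of the levels changed between the stages. At D0 it ran from Folr2 through Stab1, Msr1, Mrc1, Lyve1, F13a1 and Arg1 to Cd163, and the FPKM intervals of each neighbouring pair overlapped except those of Mrc1 (0.458 to 0.753) and Lyve1 (0.119 to 0.381). At D7 Mrc1 (20.1 to 22.0) stood clear of Folr2, Stab1 and F13a1, which were not separated by their intervals. Msr1 (3.20 to 4.17) and Retnla (2.34 to 5.16) followed, also overlapping, then Cd163 (1.09 to 1.62), Lyve1 (0.577 to 1.10) and Arg1 (0.0931 to 0.552), of which only Cd163 and Lyve1 overlapped. Mrc1 thus passed Folr2, Stab1 and Msr1, while F13a1 passed Msr1 and Lyve1.

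Promoter windows of 300 bases (250 before and 50 after the start) were found for 7 of the 10 genes, and not for Lyve1, Arg1 and Msr1. The PU.1 core, searched on both strands, was present in 6 of the 9 windows of these 7 genes (those of Mrc1, Stab1, F13a1, Retnla and Mgl2) and in 28.3% of 32851 windows of all genes. F13a1 and Folr2 have more than 1 window each. It lay at bases 71 to 76, 84 to 89 and 216 to 221 of the printed Mrc1 sequence, and Mgl2 holds it although it was listed at 0. The STAT6 motif was present in the window of Retnla, at bases 106 to 115, and in 6.95% of all windows. Retnla also holds TATAAA (13.6% of all windows) and the MAF motif TGCTGAC (4.67%) beyond the printed bases. None of the windows of the 7 genes held the C/EBP motifs TTGCGCAA and TTGCAAA, which occur in 0.183% and 3.56% of all windows. These are matches of letters and not shown to be bound.

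To set the 10 genes beside general macrophage genes, 22 genes expressed across macrophages were examined, such as the receptor Csf1r, the surface protein Adgre1 (F4/80) and the complement genes C1qa, C1qb and C1qc. All 22 were above 0 in both libraries, 19 were at least 2.0-fold higher at D7 and none was 2.0-fold lower. The other 3 were Cd14, Lgals3 and Cd53, with ratios of 1.06, 1.31 and 0.600. The summed FPKM of the 22 was 229 at D0 and 747 at D7, and their median ratio was 4.50. Lyz2 was the largest part of both sums, with 111 and 286 FPKM. Csf1r measured 2.63 and 10.4 FPKM in the D0 and D7 libraries, and Spi1, which encodes PU.1, 1.13 and 4.52 FPKM. RNA of all 22 genes was thus counted already at D0.

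The ratios of Mrc1, F13a1 and Cd163 lay above those of all 22 general macrophage genes. The highest of the 22, that of Aif1, was 20.1 on 1 fragment at D0 and about 17 at D7, and its interval of 3.14 to 839 reached past the ratios of all 3. For Mrc1 this position follows from the choice of genes, since Mrc1 had been noted beforehand as the macrophage gene that differed most. F13a1 and Cd163 had higher ratios than Mrc1, though the interval of Cd163 (21.3 to 4830) included the ratio of Mrc1 (35.8). Csf1r and Adgre1, used below as references, were chosen after seeing the data, so the relative values are a description and not a test. The ratio of Stab1 was exceeded by 2 of the 22, those of Folr2 and Arg1 by 7, that of Msr1 by 13 and that of Lyve1 by 16. As a share of the FPKM of Csf1r, the level of Mrc1 was 22.4% at D0 and 203% at D7. F13a1 was at 2.41% of Csf1r at D0 and at 101% at D7. Msr1 stayed near one level, with 33.1% and 35.3%. Relative to Csf1r, Mrc1 was 9.07-fold higher at D7 (95% interval 6.72 to 12.3), F13a1 41.9-fold (17.9 to 134) and Cd163 30.8-fold (5.32 to 1230). Adgre1 had a higher ratio than Csf1r, 10.2 (8.20 to 12.8). Relative to Adgre1, Mrc1 was still 3.5-fold higher (2.49 to 4.92), F13a1 16.2-fold (6.80 to 52.6) and Cd163 11.9-fold (2.03 to 480).

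Of the other genes above 0 in both libraries, none had an interval above 1 for both references. Stab1 was 2.29-fold higher relative to Csf1r (1.84 to 2.85) and at 0.883 relative to Adgre1 (0.676 to 1.16). Folr2 was at 1.59 (1.09 to 2.45) and at 0.615 (0.406 to 0.976). Msr1 was at 1.07 (0.768 to 1.48) relative to Csf1r and at 0.412 (0.286 to 0.593) relative to Adgre1. Lyve1 was at 0.896 (0.471 to 1.91) and at 0.346 (0.179 to 0.753). Arg1 was at 1.79 (0.216 to 83.0) and at 0.693 (0.0829 to 32.3). The intervals of Stab1 and Folr2 thus lay above 1 relative to Csf1r, while relative to Adgre1 that of Stab1 included 1 and that of Folr2 lay below 1. Retnla was at 0% of both references at D0 and at 34.3% of Csf1r and 24.9% of Adgre1 at D7, and the lower limits of its relative fold were 2.03 and 0.778.

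**Figure D2:**
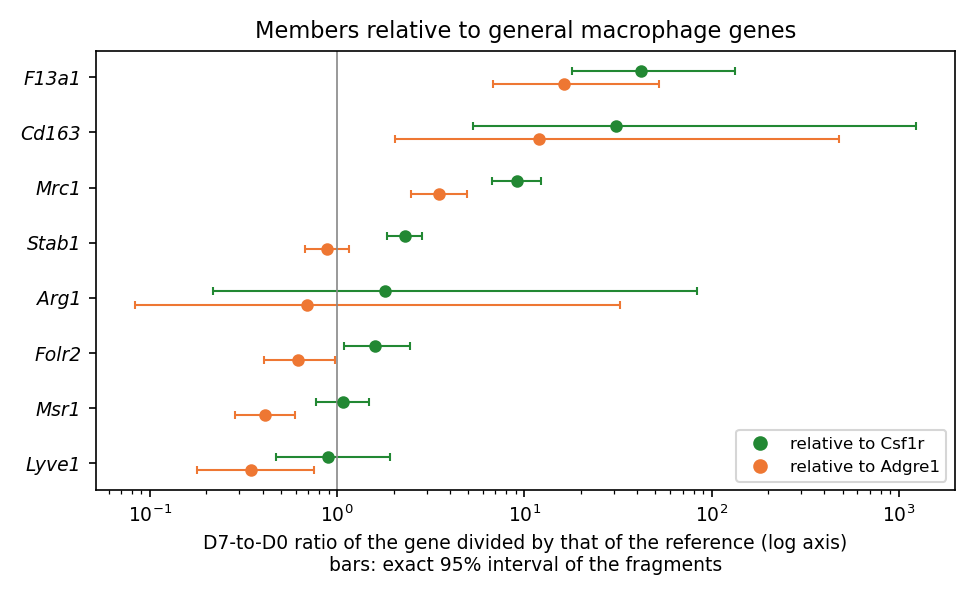
Ratio of D7 to D0 of each gene divided by the ratio of Csf1r (green) or Adgre1 (orange), on a log axis, for the 8 genes above 0 in both libraries. Bars are exact 95% intervals of the fragments. F13a1, Cd163 and Mrc1 lie above 1 for both references, while Stab1, Folr2, Msr1, Lyve1 and Arg1 do not. The genes and references were chosen with these data known, so the values are a description.

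Several of the 10 genes have close relatives, and these differed. Of the mannose receptor family, Mrc2, a collagen receptor of fibroblasts, measured 138 FPKM at D0 against 49.5 at D7 (ratio 0.358, interval 0.346 to 0.369). Ly75 measured 3.87 and 0.549 FPKM (ratio 0.142, 0.103 to 0.190), and Pla2r1 7.88 and 4.19 FPKM (ratio 0.532, 0.480 to 0.590). Mrc1 was thus the one gene of the 4 with a higher level at D7. Cd44, which like Lyve1 binds hyaluronan, measured 116 FPKM at D0 against 17.7 at D7 (ratio 0.152, 0.145 to 0.160). The relative of Stab1, Stab2, had about 5 and 8 fragments.

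Of the class A scavenger receptors related to Msr1, Scara5, a ferritin receptor, measured 0.425 FPKM at D0 against 91.4 at D7 (ratio 215, 149 to 326), and Scara3 7.52 against 22.9 (ratio 3.04, 2.75 to 3.36). Colec12 measured 63.4 and 66.8 FPKM, and its ratio of 1.05 became 0.825 when a floor of 0.01 was set and the libraries were scaled to equal medians. Marco, a receptor of some macrophages, was listed at 0 at D0 and had about 8 fragments at D7. Retn, the adipocyte hormone resistin related to Retnla, measured 0.116 FPKM on about 2 fragments at D0 against 1420 at D7, with a ratio of 12300 (2930 to 87300). Retnlb and Retnlg, also related to Retnla, were listed at 0 in both libraries. Tgm2, a transglutaminase like F13a1, measured 17.8 and 43.3 FPKM (ratio 2.44, 2.28 to 2.61, or 1.91 with that scaling). Arg2 had about 3 fragments at D0 and 1 at D7. Of the 24 relatives, 15 were above 0 in both libraries, of which 6 were at least 2.0-fold higher and 6 at least 2.0-fold lower (Mrc2, Ly75, Cd44, Folr1, Tgm1 and Arg2, the last 3 on at most 7 fragments). Among the higher ones, Asgr1 had about 2 fragments at D0 and 4 at D7, with an interval of 0.338 to 26.1. Of all genes compared, 18.5% were at least 2.0-fold higher and 13.2% at least 2.0-fold lower.

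**Figure D3:**
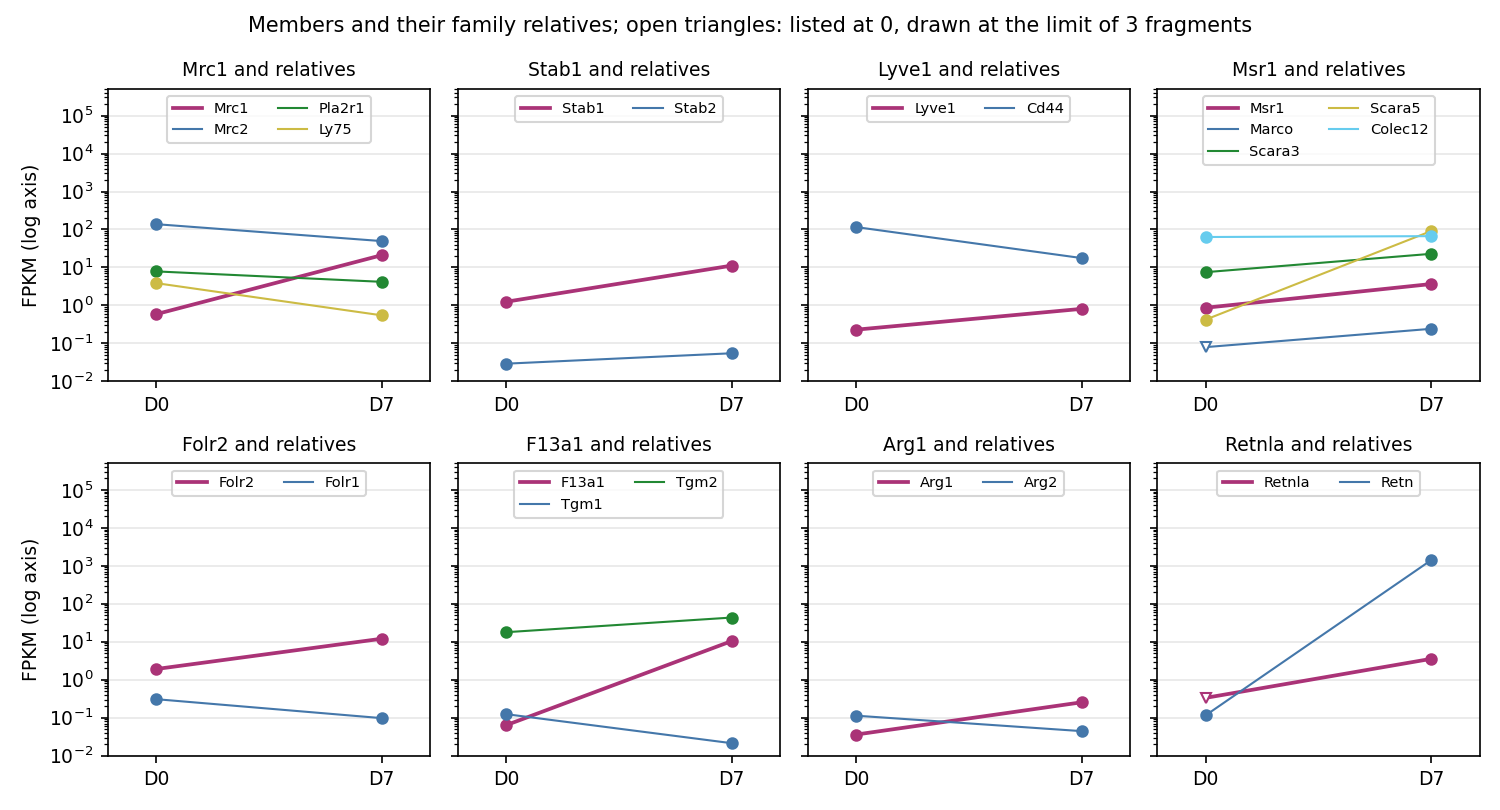
FPKM on a log axis at D0 and D7 for 8 of the genes (purple) and their family relatives, 1 library per stage. Open triangles mark values listed at 0, drawn at the limit of 3 fragments. Mrc1 crosses its relatives Pla2r1 and Ly75, while Cd44 runs against Lyve1 and Retn ends far above Retnla.

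Other genes known from alternative activation lay on both sides of equal levels. Of 21 such genes, 11 were above 0 in both libraries, of which 2 were at least 2.0-fold higher and 3 lower, with a median log2 ratio of -0.16. The higher ones were Tgm2 and Cd83, the latter on about 1 and 7 fragments. The lower ones were Il4ra, the receptor chain for IL-4 and IL-13 (FPKM 84.3 and 16.7), Socs1 (5.82 and 1.22) and Il1rn (12.1 and 3.49). Irf4, listed at 0 at D0, measured 1.98 FPKM at D7 and was at least 65.1-fold higher. Clec10a was listed at 0 at D0 and had about 14 fragments at D7, at least 5.69-fold higher (lower limit 3.91). Chil3 (Chi3l3 in the table) had 1 fragment at D7, and Il10, Ccl22, Pdcd1lg2 and Cd209a were listed at 0 in both libraries. Il4ra, Socs1, Il1rn and Irf4 are not particular to macrophages.

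Of 18 genes of classical activation, 13 were above 0 in both libraries, of which 3 were at least 2.0-fold higher (Tnf, Cd86 and Il23a) and 6 lower. Tnf and Il23a had about 7 and 3 fragments at D7, and Cd86 about 13. Ptgs2 (FPKM 67.8 and 0.870), Il6 (9.90 and 0.484), Socs3 (26.3 and 7.17), Cd80 (10.4 and 3.68), Cxcl10 (2.78 and 0.596) and Cd40 (1.16 and 0.152) were lower. Nos2, Il1b, Il12a, Il12b and Cxcl11 were listed at 0 in both libraries. The median log2 ratio of the 13 was -0.49. Several of the lower genes are also made by fibroblasts.

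Of 21 other scavenger receptors, 17 were above 0 in both libraries, with 6 at least 2.0-fold higher, 4 lower and a median log2 ratio of 0.47. Cd36, a fatty acid and lipoprotein receptor of adipocytes and macrophages, measured 0.665 and 478 FPKM (ratio 719, 534 to 1020), and Scarb1, the receptor for high-density lipoprotein, 17.8 and 70.7 FPKM (3.98, 3.69 to 4.29). Cd5l, related to Cd163, and Scarf1 had about 3 fragments each at D0 and 26 and 27 at D7, with ratios of 10.2 (3.13 to 52.7) and 10.6 (3.26 to 54.6). Timd4, a marker of some resident macrophages, had 1 fragment at D7. Olr1, Scarf2, Ssc5d and Megf10 were lower, with ratios of 0.377, 0.473, 0.485 and 0.143.

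Among 12 regulators known in resident macrophages, 11 were above 0 in both libraries, with 5 at least 2.0-fold higher, 2 lower and a median log2 ratio of 0.80. Nr1h3, the oxysterol receptor LXR alpha, which adipocytes also express, measured 2.53 and 33.6 FPKM (ratio 13.3, 10.7 to 16.4). Maf, Irf8 and Mef2c had ratios of 2.39, 2.53 and 2.12, all 3 under 2.0 with the libraries scaled to equal medians (1.87, 1.98 and 1.66). Runx1 and Nr4a1 were lower, and Spic, a factor of red pulp macrophages, was listed at 0 in both libraries.

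Of 13 signals that feed or polarise macrophages, 8 were above 0 in both libraries, with 2 at least 2.0-fold higher, 4 lower and a median log2 ratio of -0.66. Csf1, the main macrophage growth factor, measured 304 FPKM at D0 against 144 at D7 (ratio 0.474, 0.463 to 0.485), and Il34, the other ligand of its receptor, 3.01 against 10.6 (3.52, 2.82 to 4.45). Ccl2, which attracts monocytes, measured 206 and 13.3 FPKM. Gas6, a bridging factor for uptake of dying cells, measured 378 and 929 FPKM (ratio 2.46, or 1.93 with the libraries scaled to equal medians). Il4, Il13 and Il25 were listed at 0 in both libraries. Of the 14 genes of arginine and polyamine metabolism, Arg1 among them, 11 were above 0 in both libraries, with 2 at least 2.0-fold higher and 5 lower, the latter including Odc1 and Srm of polyamine synthesis (FPKM 66.6 and 32.8, and 67.1 and 33).

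**Figure D4:**
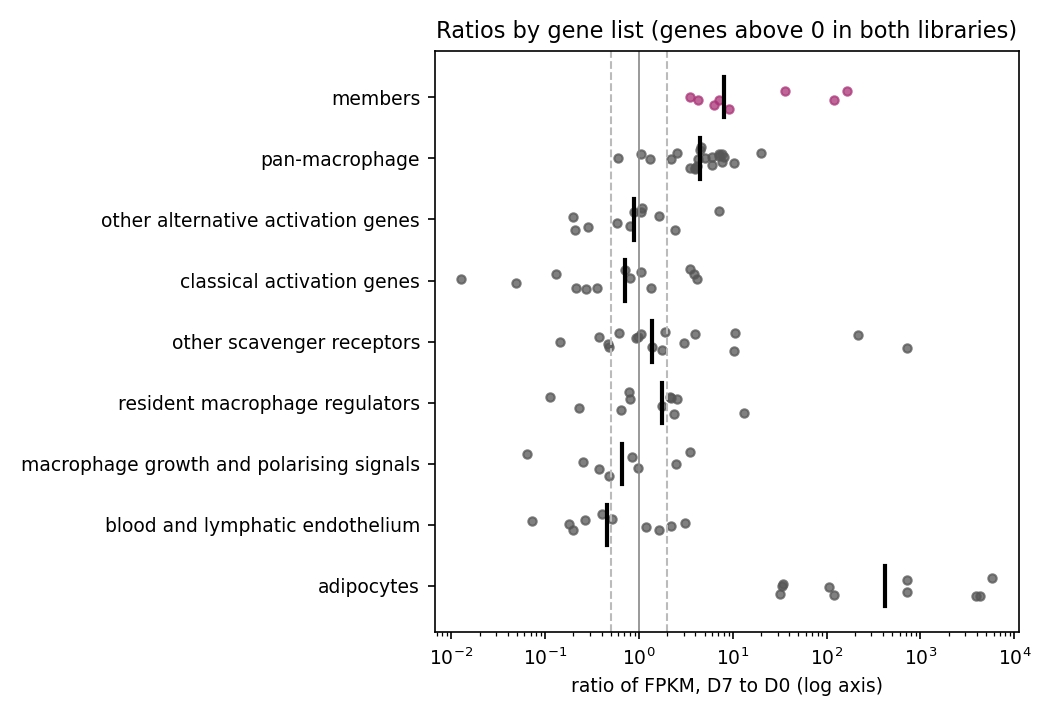
Ratios of FPKM, D7 to D0, on a log axis for genes above 0 in both libraries, by gene list; black bars are medians and dashed lines mark 0.5 and 2.0. The 8 genes described here (top row) all lie to the right of 2.0, Arg1 on about 1 and 6 fragments. The 22 general macrophage genes lie mostly beside them. The adipocyte genes also all lie to the right of 2.0, with a higher median ratio (415 against 8.04). The other lists of activation genes, regulators and signals spread to both sides.

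Markers of other cell types that could carry some of the 10 genes were read in the same way. Of 13 genes of blood and lymphatic endothelium, where Lyve1 and Stab1 are also known, 10 were above 0 in both libraries, with 2 at least 2.0-fold higher (Kdr and Tek) and 5 lower. The ratio of Kdr was 2.18, or 1.71 with the libraries scaled to equal medians. Their summed FPKM was 191 at D0 and 52.4 at D7, mostly from Pdpn (181 and 47.8), which fibroblasts also express. Pecam1 had 1 fragment in each library, Cdh5 about 13 and 2, Prox1 about 35 and 6, and Tie1 was listed at 0 in both. Of 6 dendritic cell genes, 3 were listed at 0 in both libraries, and the sum was 1.5 and 2.1. Of 8 lymphocyte genes, 5 were listed at 0 in both, and the sum was 0.155 and 0.135. Of 9 genes of granulocytes and mast cells in the table, 4 were listed at 0 in both, and the sum was 0.238 and 6.21. S100a8 (0.219 and 5.47 FPKM, about 1 and 30 fragments) and Mpo (about 1 and 16 fragments, ratio 17.7, 2.93 to 790) were higher, Cpa3 had about 0 and 6 fragments, and S100a9 was listed at 0 in both libraries. The 12 adipocyte genes summed to 85.0 FPKM at D0 against 18800 at D7, the latter mostly from Fabp4 (20.3 and 14400). Of these 12, 10 were above 0 in both libraries, and all 10 were at least 2.0-fold higher at D7. Adipoq was at 0.221 and 943, and Ucp1, the uncoupling protein of brown fat, at 0 and 4.57. The 8 preadipocyte and fibroblast genes summed to 4260 and 2110. Of these 8, Dlk1 and Cd34 were at least 2.0-fold higher (ratios 10.8 and 8.29), and Pdgfrb, Thy1 and Col1a1 lower (0.340, 0.469 and 0.316). The part of cell composition in the higher levels of the 10 genes was not tested.

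The 5 genes nearest to Mrc1 in level at both stages, by the Euclidean distance of log2(FPKM + 0.1) over the 2 libraries, were Reep6 (distance 0.348), N4bp2l1 (0.457), Tuba8 (0.483), Ralgapa2 (0.486) and Gpt (0.509). Their ratios lay between 26.5 for Tuba8 and 55.0 for N4bp2l1. None of them is in the lists of macrophage genes. With 2 libraries, many genes can lie this close.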

How the data were processed

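RNA-Seq was performed on cultures of both stages, with 1 library for D0 and 1 for D7, and no sorting of cells was described. The authors removed low-quality, duplicate and rRNA reads, aligned the others to mm10 and gene sequences with SOAP2 (the submitters' processing notes list Bowtie2) and deposited the level of each gene in each library as FPKM. Of 27324 rows, 3963 held no value and were not used. Ratios of D7 to D0 were taken without a pseudocount or rescaling, and the threshold of 2.0-fold follows the study's methods. No test across replicates was possible, and p-values were not computed.

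Fragments were recovered with 600 single-exon genes, no shorter than 600 bp, whose deposited ends lay within 500 bp of the GENCODE M21 annotation. After 179 bp (D0) and 182 bp (D7) were taken from each length, 100% of the values of up to 20 fragments lay within 0.1 of a whole number. These were 79 values at D0 and 89 at D7. The bp taken and the denominators were chosen on these genes to make this share high. With the same settings, not chosen anew, shuffled lengths gave 17.8% and 20.9%, so this contrast was favoured in advance. For other genes the length of the named transcript was used, so their fragments are estimates. Ratios carry Clopper-Pearson intervals (exact, binomial), single FPKM values exact Poisson intervals, and relative ratios exact conditional intervals of the odds ratio. The members and lists were chosen with earlier results of these data known, and the references Csf1r and Adgre1 after seeing the data. Genes are named as members, as list genes that reach an FPKM of 1 or that a statement needs, or by distance to Mrc1. Older symbols were matched through RefSeq synonyms, and Ly6g was not matched. Scripts were tested on simulated data. Computation used scipy 1.17.1, pandas 2.3.3 and numpy 2.4.6 under Python 3.11.15, and plots used matplotlib 3.10.9.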

Additional observations from a re-analysis of the deposited data

How the results depend on the processing

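All 8 genes above 0 in both libraries kept their direction, and Mrc1, Cd163, Stab1, Folr2, F13a1 and Msr1 stayed at 2.0-fold or more, under a pseudocount of 0.1 or 1, rescaling to TPM, to the upper quartile or to the median ratio, summing of rows with one symbol, and a floor of 0.01 followed by scaling to equal library medians. With a pseudocount of 1, Lyve1 and Arg1 had ratios of 1.47 and 1.21, and the ratios of Cd163 and F13a1, which rest on few fragments at D0, were 2.31 and 10.8. The median log2 ratio of 3.0 was 2.16 with a pseudocount of 1, 2.82 with the floor and library median, 3.17 when genes with no more than 3 fragments were set to that limit, and 4.17 over genes that reach an FPKM of 1. The 2767 genes of all that were at least 2.0-fold higher became 1533 with a pseudocount of 1 and 1211 at 4.0-fold. The floor with the library median shifted all genes, to a median log2 ratio of -0.34, and gave 2836 higher and 3832 lower genes (57.5% lower, against 41.7%). With at least 10 fragments in at least 1 library, 1 gene instead of 2 was higher among alternative activation genes, 1 instead of 3 among classical activation genes and 1 instead of 2 in arginine metabolism, and 3 instead of 6 family relatives were lower, since fewer genes were compared. Relative to Adgre1 instead of Csf1r, an alternative added after seeing the data, the value of Stab1 was 0.883 instead of 2.29, with an interval that included 1, and that of Folr2 0.615 instead of 1.59. No paired analysis was possible because each stage had 1 library, and for the same reason no replicate could be left out. Depth limits Arg1, Cd163, Retnla and Mgl2, with at most 1 fragment each at D0.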
